A study of Danio rerio with 15 samples.

Results

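The gene described here is *apoeb* (ENSDARG00000040295), a zebrafish apolipoprotein E gene that is widely used as a marker of microglia, the macrophages of the brain. It was chosen by its identifier and is 1 of 35117 genes in the deposited table of read counts. It was 1 of 17640 genes that passed the filter on low counts, and it was detected in all 15 libraries. Each library was made from *mpeg1*:GFP+ cells sorted from 1 whole juvenile fish, and there were 5 groups of 3 fish. The *csf1rDM* fish carry csf1raj4e1/j4e1 and csf1rbre01/re01, mutations of both zebrafish genes for the colony-stimulating factor 1 receptor, and were sampled at 33 days post fertilization (dpf) and at 1.5 months post fertilization (mpf). The *il34-/-* fish (il34re03/re03) lack functional interleukin 34, a ligand of that receptor, and were sampled at 1.5 mpf only. Controls were wild type for these genes and were sampled at both ages, and every fish carried the mpeg-GFP transgene. Sample titles call the older fish 5 months old, whereas the recorded stage and the study give 1.5 mpf, which is used here. The *mpeg1* promoter is active in macrophages and also in metaphocytes, macrophage-like cells of the skin that do not come from blood progenitors, so the sorted cells are a mixture from all organs and not microglia as such.

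Apolipoprotein E is a secreted protein that carries lipids between cells and is taken up through receptors of the low-density lipoprotein receptor family. Macrophages that digest dead cells load it with cholesterol through ABCA1-type transporters, under control of liver X receptors. In zebrafish, *apoeb* transcripts label microglia from the time these cells settle in the larval brain, and the gene is also transcribed outside the macrophage lineage, for example in the yolk syncytial layer of the embryo.

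Total counts ran from 5488201 to 106374902 per library, so that 3 counts, taken as the smallest visible level, corresponded to between 0.0282 and 0.547 CPM (counts scaled to library size). *apoeb* itself had between 1078 and 24728 counts, far above that level in every fish. The cDNA was amplified before sequencing and the reads carry no molecular identifiers, so counting error understates the true error. The targeted genes were looked at first. *csf1ra*, 1 of the 2 receptor genes, had 0, 33.9 and 0.077 CPM in *csf1rDM* fish and 163, 183 and 177 CPM in controls at 33 dpf. At 1.5 mpf it had 0, 0.0346 and 0 CPM in *csf1rDM* fish, 43.7, 24.6 and 71.0 CPM in *il34-/-* fish and 198, 115 and 206 CPM in controls. *csf1rb*, the other receptor gene, had 5.47 to 45.4 CPM in the 6 *csf1rDM* fish, below each of the 6 controls (113 to 405 CPM). Within an age, all *csf1rDM* fish were below all controls for 12.4% of the tested genes at 33 dpf and 11.6% at 1.5 mpf. Gene counts do not show the alleles themselves. *il34* had 6.02, 10.2 and 19.2 CPM in *il34-/-* fish and 22.0, 19.9 and 11.4 CPM in controls of that age (edgeR adjusted p = 0.982), which does not check that label. *csf1rDM* replicate 2 at 33 dpf stood apart as the deepest library and as the only *csf1rDM* fish with more than 1 read of *csf1ra* (3382 reads). Among controls, replicate 1 at 33 dpf had 1701 CPM summed over 5 muscle genes (1.92 to 115 CPM in the others). Summed over 10 hepatocyte genes, the controls at 1.5 mpf had 3129, 385 and 249 CPM. In fish of that age the sum was 39.6 to 62.7 CPM in *csf1rDM* and 27.2 to 36.4 CPM in *il34-/-* fish. At 33 dpf it was 2.32 to 43.8 CPM.

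At 33 dpf, *apoeb* had 301, 180 and 337 CPM in *csf1rDM* fish, against 202, 178 and 916 CPM in controls. The genotypes overlapped: 2 of the controls had levels close to that of the lowest *csf1rDM* fish, and the third control exceeded every other fish of that age. At 1.5 mpf, *apoeb* had 427, 392 and 310 CPM in *csf1rDM* fish, 823, 911 and 920 CPM in *il34-/-* fish and 585, 423 and 267 CPM in controls. All 3 *il34-/-* fish were above every other fish of that age, whereas the 3 *csf1rDM* fish fell between the lowest and the highest control. Group means were 273 ± 82.3 CPM in *csf1rDM* fish and 432 ± 419 CPM in controls at 33 dpf, and 376 ± 60.2 CPM in *csf1rDM* fish, 884 ± 53.5 CPM in *il34-/-* fish and 425 ± 159 CPM in controls at 1.5 mpf (SD, n = 3 each). The spread itself differed between groups. The coefficient of variation was 30.2% and 16.0% in *csf1rDM* fish at 33 dpf and 1.5 mpf, 6.05% in *il34-/-* fish, and 97.1% and 37.4% in controls at 33 dpf and 1.5 mpf.

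**Figure D1:**
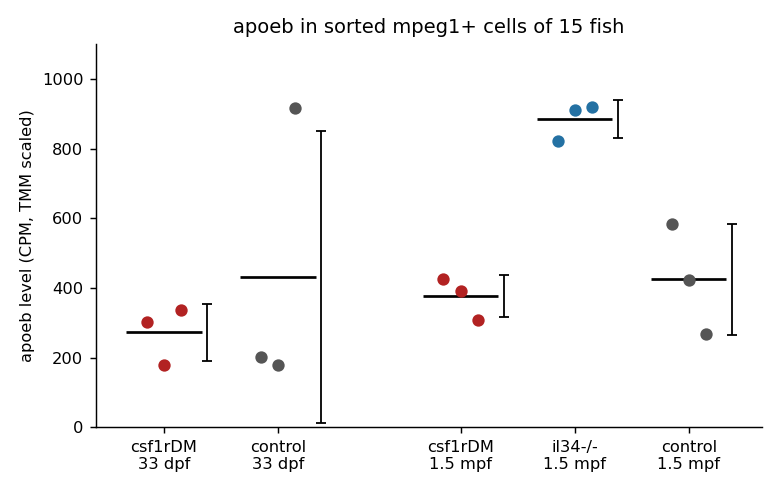
Level of *apoeb* in CPM (linear axis from 0) in each of 15 fish, grouped by genotype and age. Points are fish, horizontal bars are group means and error bars are 1 SD (n = 3). The 3 *il34-/-* fish sit between 823 and 920 CPM, the *csf1rDM* fish between 180 and 427 CPM, and the controls between 178 and 916 CPM, with 1 control at 33 dpf far above the other 2.

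The comparison of *csf1rDM* with control fish asks whether *apoeb* transcripts are lost from *mpeg1*+ cells when Csf1r is absent. No loss was detected. Over both ages, *apoeb* averaged 324 ± 85.8 CPM in *csf1rDM* fish and 428 ± 284 CPM in controls (SD, n = 6 each). The fitted log2 fold change over both ages was -0.42 (SE 0.36, 95% interval -1.20 to 0.36, edgeR quasi-likelihood test, Benjamini-Hochberg adjusted p = 0.590), in a comparison in which 5.87% of the tested genes passed an adjusted p of 0.05. The interval runs from 0.437-fold to 1.28-fold, so a fall to below 0.437-fold and a rise to above 1.28-fold of the control level lie outside it. Changes between these values could not be told apart from none. The interval rested on control replicate 3 at 33 dpf, without which the log2 fold change was 0.13 (SE 0.20). The exact two-sided permutation test over the 12 fish, with genotype permuted within age, gave a difference of -0.20 on the log2 CPM scale and p = 0.735 (400 arrangements, smallest possible p = 0.005). In sorted bulk cells, fewer cells of a type and less RNA per cell cannot be told apart.

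At 33 dpf alone the log2 fold change was -0.66 (SE 0.51, 95% interval -1.76 to 0.44, edgeR adjusted p = 0.599, 3.05% of genes called), and at 1.5 mpf it was -0.18 (SE 0.51, 95% interval -1.27 to 0.92, edgeR adjusted p = 0.983, 1.63% of genes called). Control replicate 3 at 33 dpf decided the direction at that age. Without it, the log2 fold change was 0.45 at 33 dpf and 0.13 over both ages, and neither passed (edgeR adjusted p = 0.563 and 0.891). That control had 19.1 CPM summed over the hepatocyte genes and 28.5 CPM over the muscle genes, within the range of the other libraries. At 1.5 mpf the direction rested on control replicate 1, the library with the most hepatocyte transcripts and the highest *apoeb* of its group: without it the log2 fold change was 0.13 (edgeR adjusted p = 1). Every control of 1.5 mpf had more hepatocyte transcripts (249 to 3129 CPM summed) than every *csf1rDM* fish of that age (39.6 to 62.7 CPM). The part of liver RNA in the *apoeb* levels of these controls was not tested.

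Among the fish of 1.5 mpf, the *il34-/-* fish had the highest *apoeb* levels, and the highest control at 33 dpf (916 CPM) lay among them. Against controls of the same age the difference was 1.06 on the log2 scale, or 2.08-fold (SE 0.51, 95% interval -0.05 to 2.16), and it did not pass the test (unadjusted p = 0.0595, edgeR adjusted p = 0.463, 0.686% of genes called). All 3 *il34-/-* fish exceeded all 3 controls, as was the case for 9.49% of the tested genes. The exact two-sided permutation test gave p = 0.1, the smallest that 3 fish against 3 allow. Leaving out 1 fish of either group at a time gave log2 fold changes from 0.86 to 1.36, always higher in *il34-/-* fish and never past the threshold. The SE depended on fish outside these groups. In a fit of only the groups compared it was 0.27 (unadjusted p = 0.00596, edgeR adjusted p = 0.162). Without control replicate 3 at 33 dpf, which is in neither group, it was also 0.27 (unadjusted p = 0.00149, edgeR adjusted p = 0.125).

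The 2 mutants were also set against each other. *csf1rDM* fish had 310 to 427 CPM and *il34-/-* fish 823 to 920 CPM at 1.5 mpf, a log2 fold change of -1.23 (SE 0.51, 95% interval -2.34 to -0.12), with unadjusted p = 0.032 and edgeR adjusted p = 0.287 in the fit of all groups (1.82% of genes called). All 3 *csf1rDM* fish were below all 3 *il34-/-* fish, as was the case for 11.5% of the tested genes, and the exact permutation p was 0.1, the smallest possible. This call depended on the fish that share the estimate of the spread. When only these 6 libraries were fitted, the log2 fold change was -1.25 with an edgeR adjusted p of 0.0258, and when control replicate 3 at 33 dpf was left out of the fit of all groups, it was -1.31 with an edgeR adjusted p of 0.0401. That control belongs to neither mutant group. Across all alternatives the adjusted p ran from 0.0258 to 0.451, and the direction was kept in each.

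The effect of age on *apoeb* was within the spread. Between 1.5 mpf and 33 dpf, the log2 fold change was 0.46 in *csf1rDM* fish (SE 0.51, edgeR adjusted p = 0.960, 0.215% of genes called) and -0.02 in controls (SE 0.51, edgeR adjusted p = 1, 1.17% of genes called). In controls the direction depended on how the level was averaged: on the log2 CPM scale the older fish were higher by 0.33 (exact permutation p = 0.8), because the high control at 33 dpf weighs less on that scale. Without that control, the older controls were higher by 1.11 on the log2 scale (unadjusted p = 0.00392, edgeR adjusted p = 0.233). In *csf1rDM* fish the difference of mean log2 CPM was 0.50 (exact permutation p = 0.2). The *csf1rDM* effect at 1.5 mpf minus that at 33 dpf was 0.49 (SE 0.72, 95% interval -1.06 to 2.04, edgeR adjusted p = 0.985, 0.238% of genes called), and it was -0.65 without control replicate 3 at 33 dpf.

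**Figure D2:**
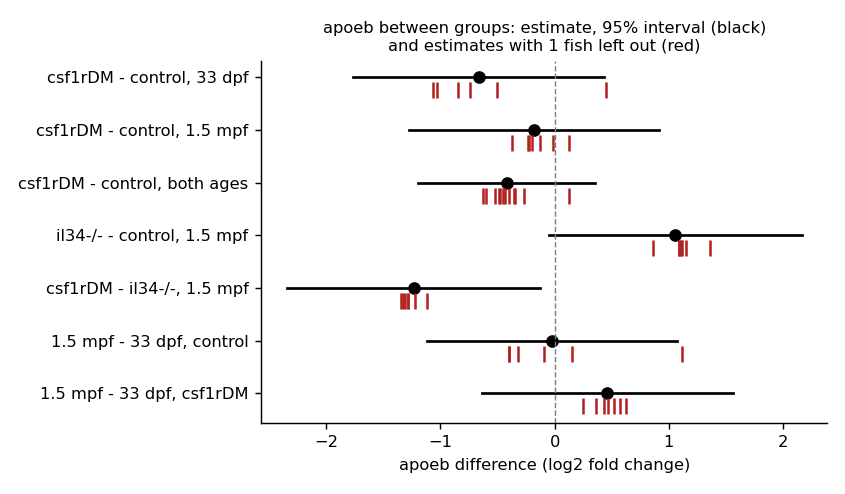
Differences in *apoeb* between groups as log2 fold changes, with the first-named group higher to the right of 0. Black points and lines are edgeR estimates with 95% intervals, and red ticks are the estimates with 1 fish left out. The interval of *csf1rDM* against *il34-/-* fish (-2.34 to -0.12) lies below 0 while its adjusted p is 0.287, and the red ticks at 0.45 and 1.11 mark the fits without control replicate 3 at 33 dpf.

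Ordered by mean log2 CPM, the groups ran from *il34-/-* fish at 1.5 mpf (9.79 ± 0.09) through controls at 1.5 mpf (8.66 ± 0.57), *csf1rDM* fish at 1.5 mpf (8.54 ± 0.24) and controls at 33 dpf (8.32 ± 1.31) to *csf1rDM* fish at 33 dpf (8.04 ± 0.48; SD, n = 3 each). Only the step from *il34-/-* fish to the controls of that age, 1.13 on the log2 scale, separated neighbours whose ranges did not overlap. The next 3 steps, of 0.12, 0.22 and 0.28, were between groups whose ranges overlapped. The biological coefficient of variation of *apoeb* in the fit was 0.454, and 16.3% of genes had a smaller one. *apoeb* was also an abundant gene, since 98.6% of tested genes had a lower mean log2 CPM, and its dispersion of 0.206 was above the trend of 0.147 for genes of that level.

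In the RefSeq gene order of the GRCz12tu assembly, *apoeb* stands in a cluster of apolipoprotein genes, with *apoa4b.2* on one side, *apoc1* on the other, and *apoc4*, *apoa2* and *apoc2* beyond *apoc1*. No listed gene overlaps its span. The direct neighbour *apoc1*, which encodes a small lipoprotein-bound protein and is also used as a microglia marker, had 0, 0 and 0.385 CPM in *csf1rDM* fish and 2.62, 1.16 and 25.5 CPM in controls at 33 dpf. At 1.5 mpf it had 1.62, 2.08 and 0.195 CPM in *csf1rDM* fish, 27.5, 39.7 and 32.1 CPM in *il34-/-* fish and 40.4, 9.81 and 14.97 CPM in controls. At each age all *csf1rDM* fish were below all controls, as was the case for 12.4% of the tested genes at 33 dpf and 11.6% at 1.5 mpf. Its log2 fold change between *csf1rDM* and control fish over both ages was -5.16 (SE 1.32, edgeR adjusted p = 0.0357). This call was lost in 10 of 22 alternatives, 8 of which left out 1 fish, with adjusted p up to 0.102 and log2 fold changes from -7.24 to -4.03. The same control that was highest for *apoeb* at 33 dpf was also highest for *apoc1*.

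Of 16 apolipoprotein genes matched by name, 12 passed the filter. *apoc1* was the only one called lower between *csf1rDM* and control fish over both ages (3.17% of all tested genes were called lower), and 0 were called higher (2.7% of all tested genes). The median log2 fold change of the 12 genes was 0.05, beside -0.05 over all genes. By age the medians had opposite signs. At 33 dpf the median was 2.33, with 9 genes above 0 and 2 below, and at 1.5 mpf it was -3.25, with 2 above 0 and 10 below. These medians rest in part on genes of low level. The highest value in any library was 11.8 CPM for *apoc4*, 12.4 CPM for *apoa4b.3* and 16.9 CPM for *apoa4b.2*, whereas *apoa2* reached 1176 CPM. In edgeR, 0 of the 12 passed at either age (3 at an unadjusted p under 0.05 and 2 by DESeq2 at 33 dpf, and 3 and 4 at 1.5 mpf). Of all 17640 genes, 3029 had an unadjusted p under 0.05 and 2142 passed by DESeq2 at 33 dpf, and 2308 and 1423 did at 1.5 mpf. *apoea*, the second zebrafish apolipoprotein E gene, had at most 38 reads in any library and was not tested. *apoa1b* and *apoa2*, which encode apolipoproteins A-I and A-II of high-density lipoproteins made mainly by liver and gut, had levels of another kind. *apoa1b* had 10.5, 1.14 and 3.13 CPM in *csf1rDM* fish, 7.98, 15.4 and 13.2 CPM in *il34-/-* fish and 1117, 179 and 95.7 CPM in controls at 1.5 mpf, and at 33 dpf its highest level was 23.7 CPM. *apoa2* had 8.51, 6.58 and 16.3 CPM in *csf1rDM* fish, 3.53, 20.8 and 11.3 CPM in *il34-/-* fish and 1176, 73.8 and 89.7 CPM in controls at 1.5 mpf. Neither passed between *csf1rDM* and control fish over both ages (edgeR adjusted p = 0.117 for *apoa1b* and 0.113 for *apoa2*). Both were highest in the control with the most hepatocyte transcripts, in which *apoeb* was also highest of its group. *apoa2* is itself 1 of the 10 hepatocyte genes summed there, so its peak in that library is in part the same observation. The hepatocyte sum at 1.5 mpf was 39.6 to 62.7 CPM in *csf1rDM*, 27.2 to 36.4 CPM in *il34-/-* and 249 to 3129 CPM in control fish. Its part in the levels of these genes was not tested. Between *il34-/-* and control fish edgeR called 0 of the 12 genes (2 at an unadjusted p under 0.05, 2 by DESeq2). Of all 17640 genes, 1989 had an unadjusted p under 0.05 and 1144 passed by DESeq2 in that comparison.

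**Figure D3:**
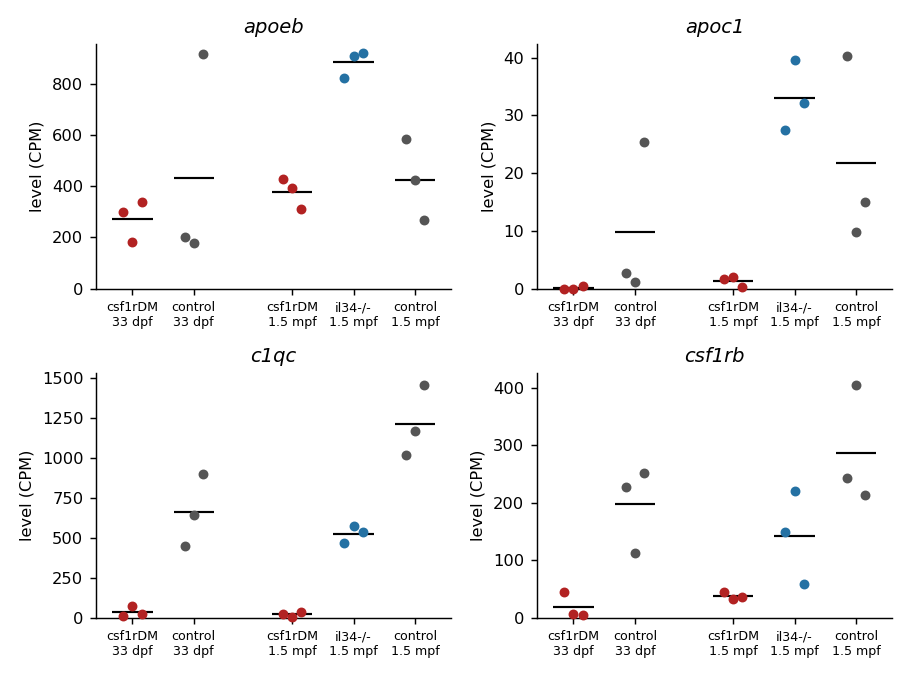
Levels in CPM of *apoeb*, its neighbour *apoc1*, the complement gene *c1qc* and the receptor gene *csf1rb* in each of 15 fish (points) with group means (bars), each panel with its own linear axis from 0. For *apoc1*, *c1qc* and *csf1rb* all *csf1rDM* fish lie below all controls of their age, whereas for *apoeb* the *csf1rDM* fish and controls overlap at both ages. Such a separation was seen for 12.4% of the tested genes at 33 dpf and 11.6% at 1.5 mpf.

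Genes that handle apolipoprotein E or its lipid cargo were mostly within the spread between *csf1rDM* and control fish. Of 15 tested, 1 was called higher and 1 lower over both ages, beside 2.7% higher and 3.17% lower of all genes. The median log2 fold change was -0.25 over both ages, 0.54 at 33 dpf and -1.03 at 1.5 mpf, and edgeR called 0 of the 15 at either age alone (1 at an unadjusted p under 0.05 and 1 by DESeq2 at 33 dpf, and 3 and 2 at 1.5 mpf). The counts over all 17640 genes were 3029 and 2142 at 33 dpf, and 2308 and 1423 at 1.5 mpf. The lower one was *lipa*, the lysosomal acid lipase that frees cholesterol from lipoprotein cargo, with 47.4, 96.1 and 47.0 CPM in *csf1rDM* fish and 212, 137 and 171 CPM in controls at 33 dpf, and 158, 66.1 and 73.1 CPM in *csf1rDM* fish and 211, 234 and 353 CPM in controls at 1.5 mpf. At each age all *csf1rDM* fish were below all controls for *lipa*, as was the case for 12.4% of the tested genes at 33 dpf and 11.6% at 1.5 mpf. Its log2 fold change was -1.44 (SE 0.29, edgeR adjusted p = 0.00866), called in all 22 alternatives. In *il34-/-* fish it had 80.7, 122 and 65.7 CPM, also below the controls of that age (as for 10.6% of the tested genes), with a log2 fold change of -1.57 that did not pass (SE 0.41, edgeR adjusted p = 0.116). The higher one was *ldlrb*, a low-density lipoprotein receptor gene that was singled out after its values were seen. It had 1.61, 23.7 and 36.7 CPM in *csf1rDM* fish and 0, 5.79 and 4.99 CPM in controls at 33 dpf, and 15.3, 13.3 and 55.9 CPM in *csf1rDM* fish, 3.92, 0.589 and 32.9 CPM in *il34-/-* fish and 0, 0 and 0 CPM in controls at 1.5 mpf. Its call (edgeR adjusted p = 0.0373) was lost when any 1 of 10 fish was left out, with adjusted p up to 0.0987. *npc1*, which exports cholesterol from lysosomes, *nr1h3*, the liver X receptor gene, and *abca1b*, a cholesterol exporter gene, had log2 fold changes of 0.18 (SE 0.18), 0.22 (SE 0.27) and 0.05 (SE 0.37), none of which passed. Between *il34-/-* and control fish edgeR called 0 of the 15 genes (5 at an unadjusted p under 0.05, 4 by DESeq2, beside 1989 and 1144 of all 17640 genes). Their median log2 fold change was -1.60, beside -0.12 over all genes.

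As a microglia marker, *apoeb* was set beside other genes used for microglia and brain macrophages, in a list drawn up with results of these libraries known. Of 21 tested, 10 were called lower and 2 higher in *csf1rDM* than in control fish over both ages (3.17% and 2.7% of all genes), and the median log2 fold change was -1.21, beside -0.05 over all genes. *apoeb*, with its log2 fold change of -0.42, was among the 9 that did not pass. The 10 lower genes included *csf1ra* (-8.27) and *csf1rb* (-3.17), the 2 genes mutated in *csf1rDM* fish, whose fall is not that of an independent marker. They also included those of the complement C1q chains, which are named here after their values were seen. *c1qa* had a log2 fold change of -4.91 (SE 0.48, edgeR adjusted p = 9.22e-05). *c1qc* had 7.87, 76.2 and 24.6 CPM in *csf1rDM* fish and 446, 642 and 899 CPM in controls at 33 dpf, and 23.1, 5.64 and 33.4 CPM in *csf1rDM* fish, 469, 577 and 533 CPM in *il34-/-* fish and 1021, 1166 and 1457 CPM in controls at 1.5 mpf. All *csf1rDM* fish were thus far below all fish of the other genotypes for *c1qc*, while *apoeb* levels overlapped those of controls. Within an age, all *csf1rDM* fish were below all controls for 12.4% of the tested genes at 33 dpf and 11.6% at 1.5 mpf. They were below all *il34-/-* fish for 11.5%. The 2 genes called higher were *cd74a* and *cd74b*, which encode the invariant chain of class II antigen presentation. *cd74a* rose by 0.81 and *cd74b* by 0.79 on the log2 scale (SE 0.14 and 0.15, edgeR adjusted p = 0.00341 and 0.00595). *ctsc*, a lysosomal protease gene, and *itgb2*, a leukocyte integrin gene, had log2 fold changes of -0.17 (SE 0.23) and -0.53 (SE 0.17) and did not pass. The listed genes *tmem119a* and *tmem119b* were below the filter, with levels of at most 5.15 CPM in any library.

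By age, 4 of the 21 microglia genes were called lower and 2 higher at 33 dpf (1.34% and 1.71% of all genes), and 7 lower at 1.5 mpf (1.2% of all genes, beside 0.437% called higher). Over the alternatives, lower calls ran from 0 to 7 at 33 dpf and from 3 to 11 at 1.5 mpf. Calls over all genes, in either direction, ran from 148 to 2142 and from 108 to 1423. The lower genes included the mutated gene *csf1rb* at 33 dpf and the mutated gene *csf1ra* at 1.5 mpf. Between *il34-/-* and control fish edgeR called 0 of the 21, with a median log2 fold change of -0.64 (0.363% of all genes were called higher). At an unadjusted p under 0.05 there were 3 of the 21, and 1 by DESeq2, beside 1989 and 1144 of all 17640 genes. Within that comparison *apoeb* had the fitted value 1.06, and 17 of the 21 genes had values below 0. Between *csf1rDM* and *il34-/-* fish 5 were called lower (0.952% of all genes), *csf1ra* among them. Summed over the 23 matched genes, levels at 33 dpf were 17812 to 24666 CPM in *csf1rDM* fish and 8960 to 12917 CPM in controls. At 1.5 mpf they were 20717 to 25848 CPM in *csf1rDM*, 15012 to 19706 CPM in *il34-/-* and 21162 to 27944 CPM in control fish. The sum includes *cd74a* and *cd74b*, the genes called higher.

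**Figure D4:**
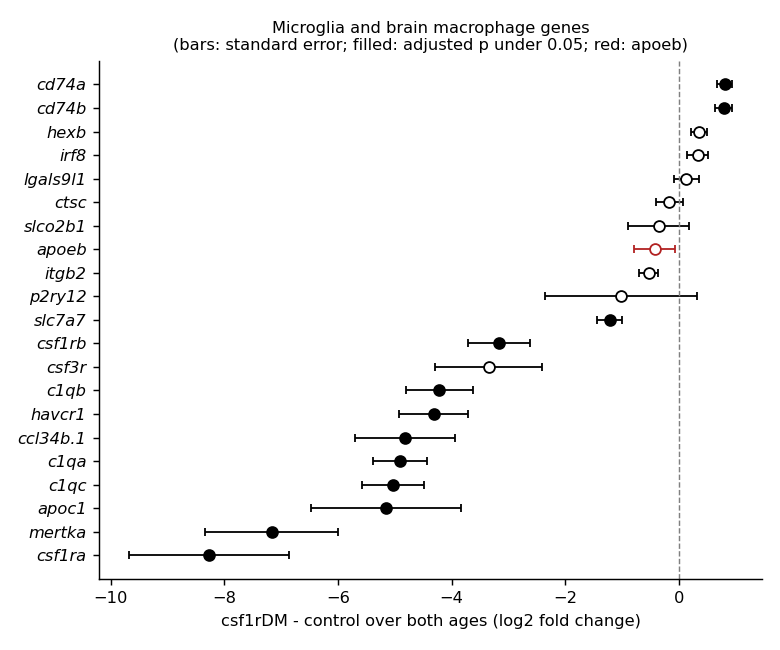
Log2 fold changes between *csf1rDM* and control fish over both ages for the 21 tested microglia and brain macrophage genes, ordered by value. Points are edgeR estimates, bars are 1 SE, filled points have an adjusted p under 0.05 and *apoeb* is in red. *apoeb*, at -0.42, is an open point among the genes near 0, above the group from *csf1rb* (-3.17) down to *csf1ra* (-8.27).

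The number of *apoeb* reads per read of the 3 C1q genes together puts both measures on 1 scale within each fish. This ratio was chosen after the data were seen and is given as a description, and since it depends on transcript lengths only its differences between fish are read. It was 15.1, 0.812 and 7.75 in *csf1rDM* fish and 0.228, 0.129 and 0.552 in controls at 33 dpf. At 1.5 mpf it was 6.60, 12.8 and 5.68 in *csf1rDM* fish, 0.878, 0.731 and 0.814 in *il34-/-* fish and 0.287, 0.178 and 0.0952 in controls. Every mutant fish had more *apoeb* reads per C1q read than every control. The C1q genes were already known to be lower in *csf1rDM* fish when the ratio was chosen, so this separation is no separate result. The share of other genes that would separate in this way was not computed. The lowest *csf1rDM* value belonged to replicate 2 at 33 dpf, which also had the *csf1ra* reads and the lowest *apoeb* level of the 6 *csf1rDM* fish, at 180 CPM.

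Genes of phagocytosis and engulfment were examined because *apoeb* marks macrophages that clear dead cells. Of 13 tested, 6 were called lower over both ages (3.17% of all genes) and the other 7 did not pass. The median log2 fold change of the 13 genes was -4.0, beside -0.05 over all genes. Among the lower genes, *havcr1* and *mertka* are also in the microglia list and *marco* in the pan-leukocyte list, so these calls are counted more than once. *havcr1*, whose product binds phosphatidylserine on dying cells, fell by 4.32 on the log2 scale (SE 0.60, edgeR adjusted p = 0.000932). *marco*, a scavenger receptor gene, fell by 4.34 (SE 0.82, edgeR adjusted p = 0.00615). *elmo1*, which acts in cytoskeletal engulfment signalling, fell by 0.69 (SE 0.14, edgeR adjusted p = 0.0119). *mrc1b*, a mannose receptor gene, had 2.22, 190 and 0.077 CPM in *csf1rDM* fish and 933, 782 and 945 CPM in controls at 33 dpf and did not pass over both ages (log2 fold change -4.39, SE 1.32, edgeR adjusted p = 0.0701). The highest of these *csf1rDM* values came from replicate 2.

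Of 10 metaphocyte genes tested, 5 were called higher and 1 lower in *csf1rDM* than in control fish over both ages (2.7% and 3.17% of all genes), with a median log2 fold change of 1.11. The lower one was *cd4-1*, which the study names in its metaphocyte signature beside *cdh1* and *epcam*. It fell by 2.17 on the log2 scale (edgeR adjusted p = 0.000143). *cdh1* and *epcam*, which encode epithelial adhesion proteins, rose by 3.29 and 2.25 on the log2 scale (SE 0.31 and 0.37, edgeR adjusted p = 7.21e-05 and 0.00243), and the keratin gene *krt4* by 1.04 (SE 0.23, edgeR adjusted p = 0.0181), while the keratin gene *krt91* had a log2 fold change of 0.65 that did not pass (SE 0.23). The *krt4* call was lost without control replicate 3 at 33 dpf or without *csf1rDM* replicate 2 at 1.5 mpf, with adjusted p up to 0.0650. At 33 dpf alone 4 of the 10 genes were called higher and 1 lower (1.71% and 1.34% of all genes). At 1.5 mpf alone 1 was called higher and 1 lower (0.437% and 1.2% of all genes), with 6 values above 0 and 4 below. The lower gene was *cd4-1* at each age. Over the alternatives, higher calls ran from 1 to 6 at 33 dpf and from 0 to 5 at 1.5 mpf, and lower calls from 0 to 1 at each age. Calls over all genes, in either direction, ran from 148 to 2142 and from 108 to 1423. Between *csf1rDM* and *il34-/-* fish 6 were called higher (0.867% of all genes), and between *il34-/-* and control fish 1 was called lower (0.323% of all genes). In the latter comparison 9 of the 10 values were below 0, with a median log2 fold change of -1.12, beside -0.12 over all genes. At an unadjusted p under 0.05 there were 7 of the 10, and 6 by DESeq2, beside 1989 and 1144 of all 17640 genes. The 1 call was lost in 8 of 17 alternatives, over which lower calls ran from 0 to 5. The summed level of the 10 genes was 2992 to 3337 CPM in *csf1rDM* fish and 813 to 1153 CPM in controls at 33 dpf, and 2435 to 3310 CPM in *csf1rDM* fish, 495 to 989 CPM in *il34-/-* fish and 927 to 1877 CPM in controls at 1.5 mpf. The sorted cells of *csf1rDM* fish thus had *apoeb* levels overlapping those of controls while this sum lay above that of controls. At 33 dpf the summed microglia genes also lay above those of controls, so a higher sum was not particular to metaphocyte genes. The summed macrophage genes lay below controls, with 6107 to 7215 against 7511 to 7891 CPM at 33 dpf. At 1.5 mpf they had 7401 to 8168 against 13728 to 15492 CPM. The part of metaphocytes in the *apoeb* level was not tested.

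Of 12 pan-leukocyte and macrophage genes, 6 were called lower and 1 higher over both ages (3.17% and 2.7% of all genes), with a median log2 fold change of -1.37. The mutated genes *csf1ra* and *csf1rb*, also counted in the microglia list, were 2 of these 6, and *marco* was another. *cebpb*, a transcription factor gene of myeloid cells, fell by 2.49 on the log2 scale (SE 0.19, edgeR adjusted p = 1.52e-05). The actin regulator gene *coro1a* and the transcription factor gene *spi1a* had log2 fold changes of -0.17 (SE 0.12) and 0.12 (SE 0.08), and neither passed. *lcp1*, the leukocyte plastin gene, rose by 0.32 (SE 0.08, edgeR adjusted p = 0.0360), a call lost in 16 of 22 alternatives, with adjusted p up to 0.169. Without *csf1rDM* replicate 2 at 33 dpf, the lower calls over both ages were 11 of 22 microglia genes, 6 of 13 phagocytosis genes and 7 of 12 pan-leukocyte genes, and 5 of 10 metaphocyte genes were called higher. That fit called 944 of all 18921 genes it tested, in either direction.

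Markers of other cell types were summed in each library, and the part of these cells in the *apoeb* level was not tested. Of 7 Müller and radial glia genes only *rlbp1a*, *gfap* and *her4.1* were matched by name, and the sum of these 3 was 0 in all 3 *il34-/-* fish and at most 8.37 CPM elsewhere. This sum leaves out glutamine synthetase, a gene of Müller glia and other cells that is named GLUL for 2 identifiers. The GLUL identifier that was among the 10 genes most like *apoeb* averaged 438 CPM in *il34-/-* fish and 299 CPM in controls at 1.5 mpf. The 14 keratinocyte genes summed to 3000 to 3564 CPM in *csf1rDM* fish and 1602 to 1811 CPM in controls at 33 dpf, and to 2213 to 2767 CPM in *csf1rDM* fish, 1686 to 2013 CPM in *il34-/-* fish and 2314 to 2892 CPM in controls at 1.5 mpf. Some keratin genes are in both the metaphocyte and the keratinocyte list. Neutrophil genes (3 matched) summed to at most 110 CPM in any library.

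The genes whose pattern over the 15 libraries was most like that of *apoeb* were found by the root mean square difference between log2 CPM profiles centred on each gene's mean. For scale, the root mean square deviation of *apoeb* from its own mean was 0.818. The median difference between the other genes' profiles and that of *apoeb* was 2.05. The closest was *aldh2.2*, an aldehyde dehydrogenase gene, at 0.516, with 64.9 CPM on average in *il34-/-* fish and 46.3 CPM in controls at 1.5 mpf. Next came PRDX4, a peroxiredoxin of the secretory pathway (0.556), *srsf7a*, a splicing factor gene (0.558), ARF5, a small GTPase of vesicle transport (0.575), and GLUL, glutamine synthetase (0.577). The others among the closest 10 were SEC61A1 (0.582), the channel subunit for protein entry into the endoplasmic reticulum, GSTM3 (0.590), MED16 (0.590), SRP9 (0.591) and *micos13* (0.591). GLUL, SEC61A1 and GSTM3 are each a name shared by more than 1 identifier. No other apolipoprotein gene and no other member of the microglia list was among these 10. These lists hold only 12 and 21 of the 17640 tested genes, so their absence from 10 places is not read as a result. The closest mirrored profiles were those of *tfe3b* (0.526), a lysosome and autophagy transcription factor gene, and IDS (0.531), a lysosomal sulfatase gene. Averages in *il34-/-* fish and controls at 1.5 mpf were 10.3 and 12.7 CPM for *tfe3b* and 17.4 and 35.6 CPM for IDS. Neither *tfe3b* nor IDS stayed among the closest 2 mirrored genes with library-size scaling or with Pearson's correlation. These likenesses rest on 15 fish that share their groups and libraries, and the measure favours genes of small variation.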

How the data were processed

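The RNA of sorted *mpeg1*:GFP+ cells of 15 single fish was amplified with a SMART-seq low-input kit, and the authors aligned the reads with STAR to GRCz10 and deposited 1 table of unnormalized counts for each gene. The submitters' processing notes name STAR 2.5.4b, HTSeq 0.11.0, Cufflinks 2.2.1, CASAVA 1.8, cutadapt and edgeR, without their order. Whether counting used strand is not given in the sources used here. Groups, replicate numbers and ages came from the sample labels. Gene symbols came from a reference table that named 27000 of the 35117 identifiers, some in human spelling.

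The counts went into edgeR 4.0.16 (R 4.3.3) with filterByExpr over the groups, TMM scaling, robust quasi-likelihood fits of all libraries with 1 coefficient per group, and Benjamini-Hochberg adjustment over all 17640 genes at 0.05. CPM were scaled by the TMM library sizes, log2 CPM used a prior count of 2, and intervals are at 95%. The SE was the log2 fold change divided by the root of the F statistic. Each replicate was a single fish. The edgeR p-values of a gene rest on 1 estimate of the spread between fish, shared by all groups and moderated across genes. A comparison is therefore not judged by the spread of its own fish alone. Single values were also tested by exact permutation over all arrangements (Python 3.11.15).

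*apoeb* and all gene lists were chosen with earlier results of these data known. Genes named were *apoeb*, the targeted genes, up to 4 members of each list with the highest mean CPM, the 10 genes most like *apoeb* and 2 mirrored. Others (*apoea*, *ldlrb*, *cd4-1*, *timd4*, *mertka*, the C1q and *tmem119* genes, and *apoeb*'s neighbours) were named after their values were seen. Listed names without a match to a single identifier were left out: the microglia list held 29 names, of which 23 were matched and 21 tested. Alternatives were DESeq2 1.42.0, RLE, upper-quartile and library-size scaling, no filter and a strict filter (10 counts in every library of a group), fits of only the groups compared, no robust estimation, thinned counts, a replicate block and leaving out each fish. Leaving control replicate 3 at 33 dpf out of comparisons of other groups was added after seeing the data. Figures were drawn with matplotlib 3.10.9.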

Additional observations from a re-analysis of the deposited data

How the results depend on the processing

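Of 158 alternative values for *apoeb*, 148 kept their direction and their side of the threshold, 8 changed sign without passing, and 2 passed. Both that passed were *csf1rDM* against *il34-/-* fish, at -1.25 with only the groups compared and -1.31 without control replicate 3 at 33 dpf. The sign changes in fits without 1 fish were 0.45 for *csf1rDM* against control fish at 33 dpf, 0.13 for both ages, 1.11 for age in controls, -0.65 for the difference of the effects between ages and 0.18 for the exact permutation difference (all without control replicate 3 at 33 dpf), 0.13 at 1.5 mpf (without control replicate 1) and 0.15 for age in controls (without control replicate 3 at 1.5 mpf). The replicate block turned age in controls to 0.16 and changed no other direction or call of *apoeb*. Under it the calls over both ages of *apoc1*, *lcp1* and the phagocytosis gene *timd4* were lost (*timd4* in 12 of 22 alternatives). Same-numbered fish did not deviate together (correlations -0.02 to 0.08). Leaving out 1 fish gave -1.06 to 0.45 (*csf1rDM* against control, 33 dpf), -0.37 to 0.13 (1.5 mpf), -0.63 to 0.13 (both ages), 0.86 to 1.36 (*il34-/-* against control), -1.34 to -1.12 (*csf1rDM* against *il34-/-*), -0.40 to 1.11 (age, controls), 0.25 to 0.63 (age, *csf1rDM*), -0.65 to 0.87 (difference of the effects) and -0.41 to 0.18 (permutation). With Pearson's correlation, 1 of the 10 genes most like *apoeb* was shared (GLUL), against 10 of 10 with library-size scaling. The mirrored genes *tfe3b* and IDS were both replaced in each of these alternatives. The causes were not tested.

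Genes called over both ages between *csf1rDM* and control fish numbered 1035, against 2781 by DESeq2, and 705 to 944 without 1 fish. Between *il34-/-* and control fish they numbered 121, against 1144 by DESeq2, 58 to 1144 over the alternatives that kept all fish and 16 to 107 without 1 fish. Over the alternatives the counts ran from 148 to 2142 at 33 dpf (538 as reported), 108 to 1423 at 1.5 mpf (288), 128 to 1845 for *csf1rDM* against *il34-/-* fish (321), 42 to 876 for age in controls (207), 0 to 1040 for age in *csf1rDM* fish (38) and 1 to 1002 for the difference of the effects (42). Library-size scaling moved the median log2 fold change of all genes at 33 dpf to -0.18, with *apoeb* at -0.84. Over both ages, lower calls ran from 9 to 12 in the microglia list, 5 to 8 in the phagocytosis list and 0 to 4 among apolipoproteins. Calls over all genes, in either direction, ran from 705 to 2781 in these alternatives. *apoeb* had at least 1078 reads in every library.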
